A study of Mus musculus with 10 samples.

Results

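Astrocytes are the glial cells that clear glutamate and potassium from synapses, move water at blood vessels and supply neurons with metabolites, and the neural stem cells (NSCs) of the adult subependymal zone (SEZ) share much of their gene expression. Chromatin that is accessible at a gene's start and at distal elements is where transcription factors can reach the DNA, and such elements may lie within a gene, between genes or in introns of neighbours. The 10 astrocyte identity genes examined here were Gfap, S100b, Aqp4, Aldh1l1, Slc1a2, Slc1a3, Gja1, Glul, Aldoc and Apoe, a list of markers out of the 21924 protein-coding genes of the annotation. Their regions were the accessible regions whose strongest summit lay in the gene body or within 50 kb of it: 112 of the 99231 regions found in 2 or more of the 10 libraries. Of these, 19 had the summit within 3 kb of a start of a coding transcript of the astrocyte gene (its promoter regions). Another 18 lay within 3 kb of such a start of a neighbouring protein-coding gene, and 75 were distal to all these starts. Starts of non-coding genes were not considered.

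Chromatin accessibility was measured by the assay for transposase-accessible chromatin with sequencing (ATAC-seq) in bulk cultures grown from the SEZ of 10-week-old mice, from 50000 cells per library. WT cells were compared with p27KO cells, which lack Cdkn1b, the gene of the cell cycle inhibitor p27; the mutation is constitutive, so that the cultures came from tissue that had developed without p27. Proliferating cells (PRO) were neurosphere cells at 3 days in vitro with EGF at 20 ng/ml and FGF at 10 ng/ml. Differentiating cells (DIFF, 2 + 1 DIV) had spent 2 days on Matrigel with FGF and then 24 h without mitogens in medium with 2% fetal bovine serum, so substrate, mitogens and serum all changed together between PRO and DIFF. There were 3 libraries of each condition for WT and 2 of each for p27KO, described by the submitters as biological replicates. Each had its own list of 57534 to 91801 peaks, in which the genes of the list held 74 to 104 peaks, and WT DIFF replicate 3 stood apart from its group with 88738 peaks against 61783 and 57534.

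The labels were checked first. A peak over the body of Cdkn1b was present in 6 of 6 WT libraries and 0 of 4 p27KO libraries, although the free-text descriptions of the p27KO libraries name WT cells. Its promoter had a peak in all WT libraries, between the 79.6 and 89.2 percentile. In p27KO it had weaker promoter peaks in both PRO libraries, at 28.3 and 36.1, and none in DIFF. Promoters of 4 Y-linked genes had peaks in all WT libraries and in 0 of 4 p27KO libraries, so genotype and the sex of the cells cannot be told apart here. All 6 neural stem and progenitor markers, among them Nes and Egfr, had a promoter peak in every library, as had all 10 astrocyte genes. Among the 5 microglial markers Cx3cr1 and Itgam had no promoter peak in any library, while Aif1, Csf1r and P2ry12 had one in all 10. The P2ry12 promoter stood between the 87.3 and 93.7 percentile in PRO and between 58.3 and 76.9 in DIFF. The summed fold enrichment over that list went from 22 to 27.5 in WT PRO to 14.7 to 23.0 in WT DIFF, and from 23.0 to 26.0 in p27KO PRO to 15.3 to 18.9 in p27KO DIFF. The endothelial genes Pecam1 and Tek had no promoter peak either, and the summed fold of the 4 endothelial markers was at most 4.21. The oligodendrocyte list summed to 26.3 to 35.7 in WT PRO and 22.1 to 37.5 in WT DIFF, and to 32.0 to 35.1 and 30.6 to 37.8 in p27KO. The neuronal list summed to 32.7 to 37.1 and 26.0 to 37.5 in WT, and to 35.7 to 40.5 and 37.9 to 38.4 in p27KO. Within these lists, Sox10 and Dcx had a promoter peak in 1 library each, Cspg4 in 8, Rbfox3 in 9 and the others in all 10. The ependymal marker Foxj1 had a promoter peak in all 10. The part of these cell types in the results below was not tested.

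Sequences of 5 regions that rose from PRO to DIFF in WT or in p27KO are shown, with exons left out. Each has up to 300 bases around the strongest summit, read from the GRCm38 assembly on the strand of the gene, 5′ to 3′. Shown are the promoter regions of Gfap and Apoe, a region 1.5 kb before an internal start of Slc1a2 and distal regions of Slc1a2 and Aldh1l1. They are examples and not the regions with the firmest calls. No Aqp4 region is among them, although Aqp4 had the most regions that rose. The distal Slc1a2 region had peaks in DIFF alone, and the Gfap call was lost when some single libraries were left out. The label "internal start" below names that Slc1a2 region, which does not reach the start itself. Capitals mark matches, on either strand, to TTGGC (the half-site of NFI factors), TTCNNNGAA (STAT factors), TGANTCA (AP-1), ACAANG (SOX factors) and TGGGAA (RBPJ), where N is any base. In the Apoe sequence a SOX match and the NFI match overlap.
Gfap, 1.3 kb upstream of its coding start (chr11:102898373-102898672, GRCm38, minus strand): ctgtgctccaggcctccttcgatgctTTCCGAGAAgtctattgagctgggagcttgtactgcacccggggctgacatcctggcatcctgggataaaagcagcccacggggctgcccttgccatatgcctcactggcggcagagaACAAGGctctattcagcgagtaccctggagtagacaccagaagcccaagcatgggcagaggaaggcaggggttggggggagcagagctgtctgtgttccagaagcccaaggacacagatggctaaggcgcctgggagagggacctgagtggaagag
Apoe, upstream of its start (chr7:19699189-19699323, GRCm38, minus strand): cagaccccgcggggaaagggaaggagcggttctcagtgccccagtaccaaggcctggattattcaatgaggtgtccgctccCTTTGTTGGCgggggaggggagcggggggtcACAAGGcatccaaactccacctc
Slc1a2, internal start (chr2:102759522-102759821, GRCm38, plus strand): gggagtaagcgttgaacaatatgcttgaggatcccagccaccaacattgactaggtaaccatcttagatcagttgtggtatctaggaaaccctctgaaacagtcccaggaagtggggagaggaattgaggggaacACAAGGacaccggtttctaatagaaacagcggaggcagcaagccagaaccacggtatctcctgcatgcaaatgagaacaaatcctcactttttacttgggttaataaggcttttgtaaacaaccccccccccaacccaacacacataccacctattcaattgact
Slc1a2, 22.3 kb upstream, in an intron of Pamr1 (chr2:102636241-102636526, GRCm38, plus strand): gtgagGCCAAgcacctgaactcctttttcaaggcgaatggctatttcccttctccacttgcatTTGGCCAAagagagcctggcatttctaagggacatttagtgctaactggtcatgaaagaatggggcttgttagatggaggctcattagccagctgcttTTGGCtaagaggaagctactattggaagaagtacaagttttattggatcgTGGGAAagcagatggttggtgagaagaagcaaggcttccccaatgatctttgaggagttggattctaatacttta
Aldh1l1, 42.5 kb upstream of its coding start (chr6:90508168-90508467, GRCm38, plus strand): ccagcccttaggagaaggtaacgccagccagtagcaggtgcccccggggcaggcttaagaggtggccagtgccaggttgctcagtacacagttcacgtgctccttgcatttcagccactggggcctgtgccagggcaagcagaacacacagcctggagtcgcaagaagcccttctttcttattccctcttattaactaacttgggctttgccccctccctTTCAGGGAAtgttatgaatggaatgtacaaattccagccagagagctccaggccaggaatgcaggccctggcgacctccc

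The Gfap sequence holds 1 STAT match, which starts near its 5′ end, and the Aldh1l1 sequence holds another. As background, the Gfap promoter is known for a STAT3 element whose methylation keeps the gene silent in early progenitors. The upstream Slc1a2 sequence holds 4 NFI half-site matches. Over 300 bases around the summit, 7 of the 87 tested astrocyte regions held the STAT motif, against 8.96% of 70509 tested regions on assembled chromosomes. Among the 13 astrocyte regions that were higher at DIFF in WT or in p27KO, 4 held it (Gfap at 1.3 kb upstream, Aldh1l1 at 42.5 kb upstream and Aqp4 at 10.5 and 23.1 kb upstream), against 11.7% of all regions higher at DIFF in WT. The NFI half-site was in 5 of the 13, against 54.4% of all tested regions and 68.6% of those higher in WT. The SOX motif was in 7, against 49.9% and 54.7%. The AP-1 motif was in 0 of those 13 regions and in 5 of all 87, against 10.8% of all tested regions, 6.95% of those higher and 28.2% of those lower at DIFF in WT. RBPJ matches were in 3 of the 13, in 27% of all regions and in 31.7% of those higher in WT. A match is a description of the letters and not evidence that a factor was bound.

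Within each library, a region's fold enrichment was given as its percentile among that library's own peaks, from 0 for the weakest to 100 for the strongest. For tests, regions found in 5 or more libraries were ranked within each library, a missing peak taking the lowest rank, and the ranks were turned into normal scores, so that a change of 1 is 1 standard deviation of all tested regions. A region was called when the adjusted p-value of limma's moderated test, over all 70627 tested regions, was under 0.05. Of the 112 astrocyte regions, 87 were tested, 53 of them with a peak in all 10 libraries, and the other 25 had peaks in 2 to 4 libraries. In bulk chromatin, more cells with an open region and a more open region per cell cannot be told apart.

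From PRO to DIFF, 12 of the 87 astrocyte regions (13.8%) rose and 2 (2.30%) fell in WT cells, against 9.15% and 10.1% of all tested regions. In p27KO cells 12 (13.8%) rose and 1 (1.15%) fell, against 5.83% and 6.48%. The same 11 regions rose in both genotypes. They belonged to Aqp4 (4 regions), Aldh1l1 (3), Slc1a2 (2), Aldoc (1) and Apoe (1). Gfap and a further intronic Slc1a2 region rose in WT alone and in p27KO alone, respectively, by the threshold, which is not a test of a difference. The median change over the astrocyte regions was 0.10 in WT and 0.19 in p27KO, against 0.03 and 0.04 over all tested regions. Among the 11, 5 regions had peaks in every DIFF library and in no PRO library, so that they entered the test only through DIFF and had to differ. Among the 53 regions with a peak in all 10 libraries, 5 rose and 1 fell in WT, against 6.24% and 4.98% of all such regions, and 5 rose and 0 fell in p27KO, against 2.84% and 2.95%. The median change over these 53 was 0.13 in WT and 0.21 in p27KO, against 0.08 and 0.09. The p27KO count rested on few libraries and fell without p27KO PRO replicate 1, p27KO DIFF replicate 1 or p27KO DIFF replicate 2. Each of these fits left an arm with a lone library assumed to vary like the others. Calls over all regions in these fits are not given here.

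**Figure D1:**
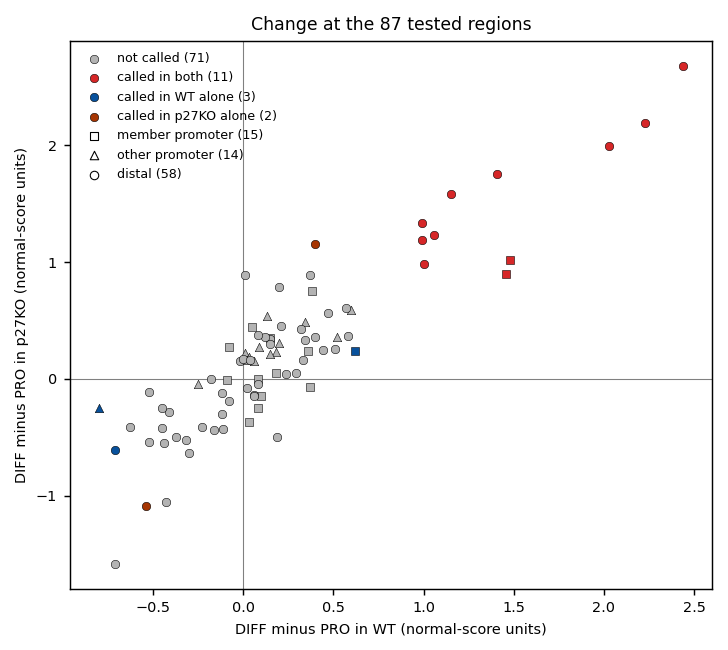
Change from PRO to DIFF in WT cells (horizontal, normal-score units) against the change in p27KO cells (vertical, same units) for the 87 tested regions of the 10 astrocyte genes, coloured by call and shaped by class. The 11 regions called in both genotypes lie at the upper right, apart from most of the 71 regions that were not called in either.

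By position, the promoter regions of the astrocyte genes and of their neighbours together had 4 calls of 29 in WT and 2 of 29 in p27KO, against 7.03% and 3.73% of all promoter regions in either direction. Distal regions had 10 calls of 58 in WT and 11 of 58 in p27KO, against 23.3% and 15.2% of all distal regions. Of the 87 regions, 76 (87.4%) changed with the same sign in both genotypes, against 76.0% of all tested regions.

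The presence or absence of a peak was also counted, without a test. A region was taken as opened when all DIFF libraries and no PRO library had a peak, and as closed in the reverse case. Of the 112 astrocyte regions 5 opened in WT and 6 in p27KO, against 1.86% and 3.32% of all regions, and 2 closed in WT and 6 in p27KO, against 4.32% and 10.9%. In both genotypes 5 opened (background 0.959%): Aqp4 at 10.5 and 31.1 kb upstream, Aldh1l1 at 47.1 kb downstream of its coding start, Slc1a2 at 22.3 kb upstream and Aldoc at 4.3 kb upstream. Only an intronic Aldh1l1 region 27.5 kb downstream closed in both (background 2.61%). It had stood between the 8.26 and 38.2 percentile in the PRO libraries. The counts of closed regions moved with single libraries: 4 in WT without WT PRO replicate 3 or WT DIFF replicate 2 and 8 without WT DIFF replicate 3, and in p27KO 12 without p27KO PRO replicate 2, 10 without p27KO DIFF replicate 1 and 14 without p27KO DIFF replicate 2. The count of opened regions in p27KO was 11 without p27KO DIFF replicate 1. Leaving out a library of a genotype loosens the rule for that genotype, so these counts could only stay or rise. Shares of all regions under the loosened rule are not given here.

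**Figure D2:**
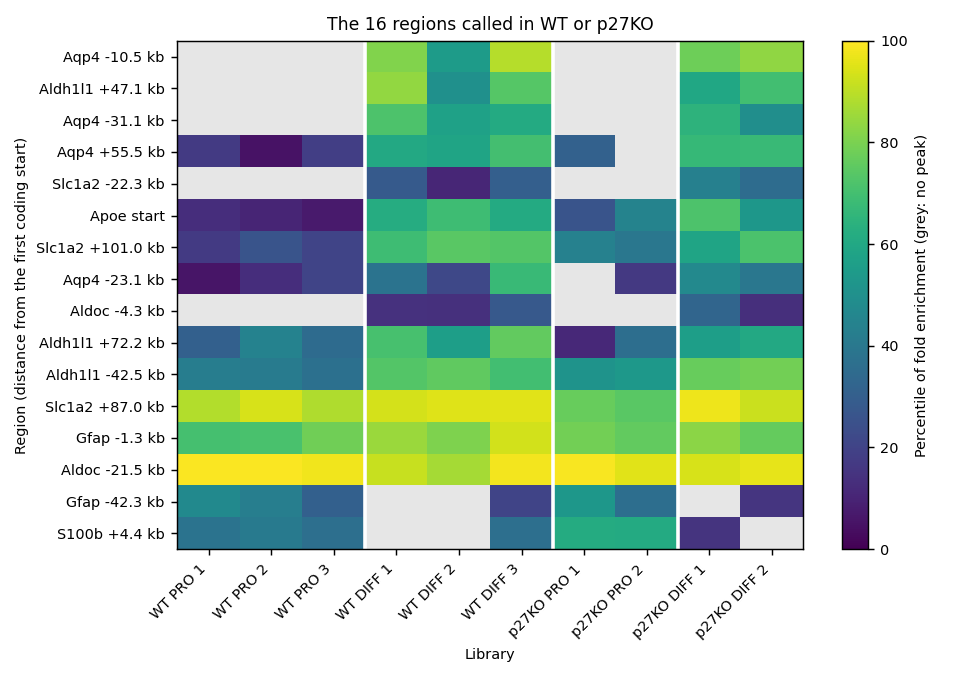
Percentile of fold enrichment (colour, 0 to 100) in each of the 10 libraries for the 16 regions called in WT or p27KO, ordered by the mean change over both genotypes; grey cells had no peak and distances are from the first coding start. The upper 11 regions had no peak or a lower percentile in PRO than in DIFF in both genotypes. Of these, Slc1a2 at 22.3 kb upstream and Aldoc at 4.3 kb upstream were grey in PRO and stayed low in DIFF, at 10.6 to 43.4 and 13.4 to 32.6.

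Aqp4 encodes the water channel of astrocyte endfeet and had the most regions that rose. Its locus on chromosome 18 had 8 regions, of which 7 were tested and 4 rose in each genotype. The region 10.5 kb upstream of its first coding start had no peak in the 3 WT PRO or the 2 p27KO PRO libraries. It stood at the 80.9, 54.7 and 88.7 percentile in WT DIFF and at 78.0 and 83.4 in p27KO DIFF, with fold enrichments of 5.55 to 12.1. The region 31.1 kb upstream was likewise found only in DIFF, at 71.9, 57.4 and 61.2 in WT and 64.6 and 49.5 in p27KO. Both entered the test through DIFF alone, so their calls are a description. The latter region is nearer to Chst9, at 9.9 kb from that gene, than to Aqp4, as is the region 23.1 kb upstream of Aqp4, at 17.9 kb from Chst9.

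A region 55.5 kb downstream of the first start, past the end of Aqp4, had peaks on both sides of the comparison. It stood at 16.9, 4.86 and 18.4 in WT PRO and at 60.4, 58.5 and 70.0 in WT DIFF. In p27KO PRO it stood at 31.1 in replicate 1 and had no peak in replicate 2, and in p27KO DIFF at 67.1 and 67.8. Again every DIFF library lay above every PRO library, with a change of 1.41 ± 0.22 (SE; limma adjusted p = 0.00128) in WT and 1.75 ± 0.27 (adjusted p = 0.00211) in p27KO. The region 23.1 kb upstream changed by 0.99 ± 0.25 (limma adjusted p = 0.0174) in WT and 1.33 ± 0.31 (adjusted p = 0.0163) in p27KO. That call was lost in WT without WT PRO replicate 1 or 2 or WT DIFF replicate 3 (adjusted p from 0.0508 to 0.0623) and in p27KO without p27KO PRO replicate 1 or either p27KO DIFF library (adjusted p from 0.0504 to 0.121).

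The promoter regions of Aqp4 did not pass the test. A region 5.7 kb inside the gene, 1.5 kb before an internal coding start and singled out here after its values were seen, was the strongest of all 87 tested astrocyte regions, with a mean percentile of 98.1. It lay between 96.0 and 99.5 in all 10 libraries, and its change was 0.08 in WT (limma adjusted p = 0.832) and -0.25 in p27KO (adjusted p = 0.59). The region nearest to a start was weak, between 0.365 and 30.8 in the 8 libraries that had it, with a change of -0.08 in WT and 0.27 in p27KO. The strongest distal region, 59.1 kb downstream, lay between 44.0 and 76.9 and changed by -0.08 in WT and -0.19 in p27KO.

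Aldh1l1, a folate enzyme used as a pan-astrocyte marker, spans 113.8 kb at chr6:90486427-90600203 with its transcripts from upstream starts, and had 29 regions, of which 22 were tested and 3 rose in each genotype. The intronic region 42.5 kb upstream of the coding start (chr6:90508019-90508683), whose sequence is shown above, stood at 42.4, 41.5 and 36.8 in WT PRO and at 73.1, 75.4 and 69.8 in WT DIFF. In p27KO it stood at 51.3 and 53.3 in PRO and at 76.6 and 78.9 in DIFF. All DIFF values lay above all PRO values, with a change of 1.00 ± 0.19 (limma adjusted p = 0.00345) in WT and 0.98 ± 0.23 (adjusted p = 0.0169) in p27KO. The p27KO call was lost without any of the 4 p27KO libraries (adjusted p from 0.0592 to 0.0966).

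The intronic region 47.1 kb downstream of the coding start (chr6:90597715-90597968) had no peak in PRO and stood at 83.6, 50.2 and 73.5 in WT DIFF and at 59.6 and 69.7 in p27KO DIFF. The third region that rose lay 72.2 kb downstream, in an intron of the neighbour Slc41a3 (chr6:90622759-90623193). It stood at 30.5, 44.3 and 34.9 in WT PRO, 70.8, 56.0 and 76.1 in WT DIFF, 11.4 and 36.1 in p27KO PRO and 55.9 and 60.4 in p27KO DIFF. These groups did not overlap either, and the change was 0.99 ± 0.22 (limma adjusted p = 0.0101) in WT and 1.19 ± 0.27 (adjusted p = 0.0162) in p27KO, the latter lost without p27KO PRO replicate 1 or either p27KO DIFF library (adjusted p from 0.0743 to 0.12). The region at the coding start itself ranged from 43.8 to 83.6 over the 10 libraries and changed by 0.37 in WT (limma adjusted p = 0.449) and -0.07 in p27KO (adjusted p = 0.939). The strongest distal region, 9.2 kb upstream, lay between 83.7 and 96.3 throughout. Other intronic Aldh1l1 regions 14.8 and 18.2 kb downstream had peaks in both p27KO PRO libraries and neither p27KO DIFF library, with changes of -0.52 and -0.42 in p27KO that did not pass the test (limma adjusted p = 0.16 and 0.363).

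Slc1a2 and Slc1a3 encode the glutamate transporters GLT-1 and GLAST, GLAST being already made by SEZ stem cells and GLT-1 by mature astrocytes. Slc1a2 (chr2:102658659-102790784) had 14 regions, of which 11 were tested. A region 101.0 kb into the gene (chr2:102759396-102760583) had its summit 1.5 kb before an internal coding start. It stood at 16.9, 26.0 and 20.7 in WT PRO and 68.9, 74.4 and 73.3 in WT DIFF. In p27KO it stood at 43.9 and 39.8 in PRO and 58.3 and 71.5 in DIFF. The fold enrichment went from 3.6 to 4.08 in WT PRO to 7.17 to 8.14 in WT DIFF. Every DIFF library was above every PRO library, with a change of 1.46 ± 0.18 (limma adjusted p = 0.000336) in WT and 0.90 ± 0.22 (adjusted p = 0.0216) in p27KO. The difference between these changes was -0.56 ± 0.28 (unadjusted p = 0.0741 in the limma fit), and the p27KO call was lost without any of the 4 p27KO libraries (adjusted p from 0.0514 to 0.133).

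The region 22.3 kb upstream of Slc1a2 (chr2:102636124-102636477), in an intron of the neighbour Pamr1, had no peak in PRO and was of low rank in DIFF. It stood at 28.2, 10.6 and 30.1 in WT and at 43.4 and 35.5 in p27KO, with fold enrichments of 3.24 to 4.84. The intronic region 87.0 kb into the gene was already strong, at 88.5, 93.9 and 87.9 in WT PRO and 93.7, 95.1 and 95.4 in WT DIFF, a change of 0.40 ± 0.20 (limma adjusted p = 0.198). In p27KO it rose from 76.8 and 74.6 to 97.3 and 92.0, a change of 1.15 ± 0.24 (adjusted p = 0.0113), lost without either p27KO PRO library or p27KO DIFF replicate 1 (adjusted p from 0.0549 to 0.0951). The difference between genotypes in that change was 0.75 (unadjusted p = 0.0362, limma) and did not pass the correction, with an adjusted p of 1. The region at the 5′ start of the gene ranged from 58.8 to 81.6 and changed by -0.09 in WT (limma adjusted p = 0.78) and -0.01 in p27KO (adjusted p = 0.991). The strongest distal region, 37.7 kb upstream, lay between 90.3 and 96.6 in all libraries.

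Slc1a3 (chr15:8634124-8710764) had 16 regions, 13 of them tested, and 0 were called in either genotype. By unadjusted p under 0.05 in the limma fit, 1 region passed in WT and 3 in p27KO, against 22689 and 18169 of all 70627 tested regions. The promoter region stood between 13.3 and 39.6 in the WT libraries and between 37.1 and 53.4 in the p27KO libraries, with a change of 0.36 in WT (limma adjusted p = 0.268) and 0.24 in p27KO (adjusted p = 0.621). The intronic region 38 kb into the gene was its strongest and lay between 78.4 and 91.5. The largest changes among its tested regions were 0.57 in WT, at an intronic region 46.8 kb into the gene (limma adjusted p = 0.059), and -1.05 in p27KO, at a region 120.9 kb downstream of the start (adjusted p = 0.0721).

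Gja1, Glul and Aldoc encode connexin 43 of astrocyte gap junctions, glutamine synthetase and the glycolytic enzyme aldolase C. Gja1 had 5 regions, all tested, and Glul had 5, of which 2 were tested, and 0 were called in either genotype by limma. At an unadjusted p under 0.05, 0 regions of Gja1 passed in WT and 1 in p27KO, and 0 of Glul in either. Of all 70627 tested regions, 22689 passed in WT and 18169 in p27KO. The Gja1 promoter region lay between 44.8 and 66.6 and changed by 0.10 in WT (limma adjusted p = 0.769) and -0.15 in p27KO (adjusted p = 0.752). The Gja1 region 38.1 kb upstream was stronger, between 77.7 and 92.0. The Glul promoter region, which also holds a start of Teddm2, lay between 80.1 and 90.7, the highest level among the regions nearest to a start, and changed by 0.18 and 0.05.

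Aldoc (chr11:78322968-78327781) had 10 regions, of which 8 were tested. Its promoter region lay between 45.2 and 65.1 in all libraries, with a change of 0.05 in WT (limma adjusted p = 0.888) and 0.44 in p27KO (adjusted p = 0.298). A region 4.3 kb upstream, in an intron of the neighbour Spag5 (chr11:78318474-78318693), was absent from PRO and stood at 14.1, 14.0 and 27.9 in WT DIFF and 32.6 and 13.4 in p27KO DIFF. It too entered the test through DIFF alone, and its p27KO call was lost without p27KO PRO replicate 1 or p27KO DIFF replicate 1. The promoter region of Spag5, 21.5 kb upstream of Aldoc, fell in WT by 0.80 on the normal-score scale (limma adjusted p = 0.0472) from 99.4, 99.5 and 98.0 to 91.7, 86.5 and 98.1, values that overlap between the groups. In p27KO it changed by -0.25 (limma adjusted p = 0.666). Its WT call was lost without WT PRO replicate 1 or 2, WT DIFF replicate 1 or 2 or either p27KO DIFF library (adjusted p from 0.0598 to 0.154). The strongest distal region of Aldoc, 43.2 kb upstream in a coding exon of 2610507B11Rik, stood at 76.3, 83.2 and 79.2 in WT PRO and 56.0, 62.1 and 76.9 in WT DIFF, and at 79.6 and 77.6 in p27KO PRO and 39.4 and 57.2 in p27KO DIFF. All its PRO values but that of WT PRO replicate 1 lay above all its DIFF values, and the change was -0.30 ± 0.18 in WT (limma adjusted p = 0.263) and -0.63 ± 0.22 in p27KO (adjusted p = 0.0829). The p27KO change passed the threshold in a fit of regions in all 10 libraries (adjusted p = 0.0384) and with the lists cut to the length of the shortest (adjusted p = 0.0456).

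Gfap and S100b encode the intermediate filament of astrocytes and a calcium-binding protein. Gfap (chr11:102887336-102900912) had 8 regions, of which 6 were tested. The region 1.3 kb upstream of its coding start (chr11:102898281-102898911), whose sequence is shown above, was already strong in PRO at 70.7, 71.4 and 78.2 in WT and 78.8 and 76.0 in p27KO. In DIFF it stood at 84.8, 80.5 and 93.3 in WT and at 82.8 and 76.2 in p27KO. All WT DIFF libraries lay above all WT PRO libraries, with a change of 0.62 ± 0.18 (limma adjusted p = 0.0362), while the p27KO groups overlapped, with a change of 0.24 ± 0.22 (adjusted p = 0.552). The difference between the genotypes was -0.38 ± 0.29 (unadjusted p = 0.221, limma) and was thus not called, and the WT call was lost without WT PRO replicate 1 or 2 or WT DIFF replicate 1 or 3 (adjusted p from 0.0729 to 0.107).

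A region 42.3 kb upstream of Gfap, in an untranslated exon of C1ql1, fell in WT. It stood at 47.3, 42.7 and 30.7 in WT PRO and had a peak in WT DIFF in replicate 3 alone, at 20.5. The change was -0.71 ± 0.19 (limma adjusted p = 0.0253) in WT and -0.61 ± 0.24 (adjusted p = 0.127) in p27KO. The WT call was lost without WT PRO replicate 1 or 2 or WT DIFF replicate 1 or 2 (adjusted p from 0.0583 to 0.0841). A region 3.9 kb upstream, at the distal end of the longer Gfap transcripts, ranged from 12.9 to 55.1 and changed by -0.18 in WT (limma adjusted p = 0.616).

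S100b (chr10:76253853-76261159) had 9 regions, of which 7 were tested. The region at its start was of middle rank, between 33.5 and 57.0 in the 9 libraries that had it, and changed by 0.03 in WT (limma adjusted p = 0.954) and -0.37 in p27KO (adjusted p = 0.578). The intronic region 4.4 kb downstream (chr10:76257806-76258314) fell in p27KO. It stood at 61.7 and 61.3 in p27KO PRO, at 15.2 in p27KO DIFF replicate 1 and without a peak in replicate 2, and at 38.1, 41.2 and 36.7 in WT PRO with a WT DIFF peak in replicate 3 alone, at 36.4. The change was -1.09 ± 0.28 (limma adjusted p = 0.0282) in p27KO and -0.54 ± 0.23 (adjusted p = 0.133) in WT. The p27KO call was lost without either p27KO PRO library or p27KO DIFF replicate 2 (adjusted p from 0.091 to 0.201).

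Apoe encodes the main lipid carrier that astrocytes secrete, and its own start rose in both genotypes. Its promoter region (chr7:19698214-19699567) covers the start of the gene at chr7:19696109-19699188. In WT PRO it was among the weakest peaks, at 13.1, 10.3 and 7.28, and in WT DIFF it stood at 62.0, 68.8 and 61.3. In p27KO it stood at 25.9 and 44.8 in PRO and at 72.0 and 53.1 in DIFF. No DIFF library overlapped a PRO library of its genotype, and the fold enrichment was 3.05 to 3.35 in WT PRO and 6.32 to 7.02 in WT DIFF. The change was 1.48 ± 0.24 (limma adjusted p = 0.00169) in WT and 1.02 ± 0.30 (adjusted p = 0.0474) in p27KO, with a difference of -0.46 ± 0.38 between them (unadjusted p = 0.253). The p27KO call was lost without p27KO PRO replicate 1, either p27KO DIFF library, any of the WT PRO libraries or WT DIFF replicate 1 (adjusted p from 0.054 to 0.28).

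The other regions near Apoe showed smaller changes. The region 2.0 kb upstream, which lies within 3 kb of a start of Tomm40 as well, changed by 0.08 in WT (limma adjusted p = 0.795). The promoter region of Apoc1, another apolipoprotein gene 5.6 kb downstream of the Apoe start, changed by 0.60 in WT (adjusted p = 0.0659) and 0.59 in p27KO (adjusted p = 0.166). The strongest distal region, 30.1 kb downstream, lay between 65.5 and 84.1 and changed by 0.21 in WT (adjusted p = 0.484) and 0.45 in p27KO (adjusted p = 0.247). All 6 tested regions of Apoe had a change above 0 in both genotypes, but 1 of the 6 passed the test.

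**Figure D3:**
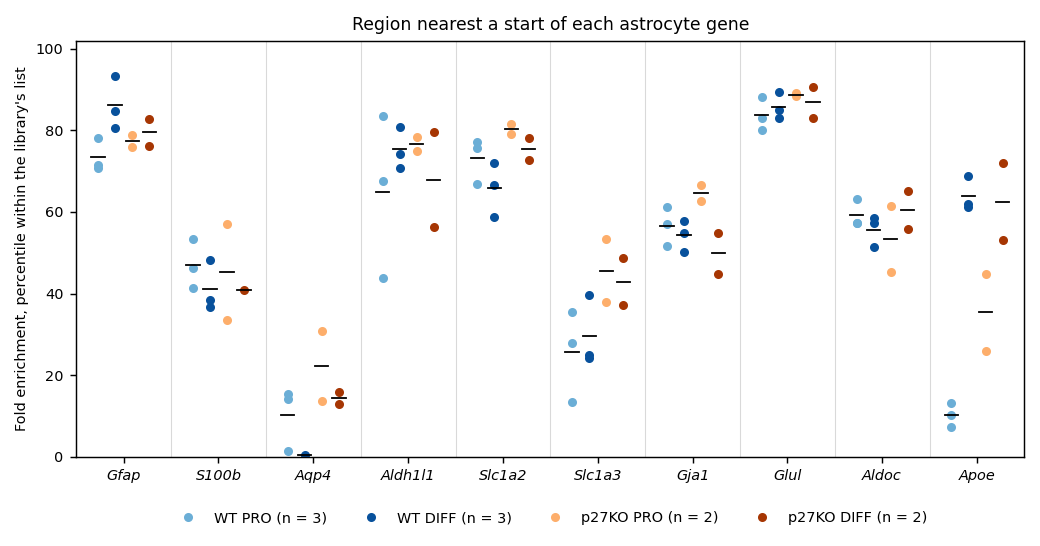
Percentile of fold enrichment within each library's list (vertical, 0 to 100) of the region nearest to a start of each astrocyte gene; points are libraries, short bars are means over libraries with a peak, and colours are the 4 groups. Apoe is the gene whose groups separate most widely between PRO and DIFF, from 7.28 to 13.1 in WT PRO to 61.3 to 68.8 in WT DIFF, and missing points had no peak.

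Across the regions nearest to a start, the mean percentile over libraries with a peak was highest for Glul (86.0), Gfap (79.3), Slc1a2 (72.9) and Aldh1l1 (71.0). Then came Aldoc (57.2), Gja1 (56.2), S100b (44.0), Apoe (41.9), Slc1a3 (34.2) and Aqp4 (13.0). The ranges over the libraries of each gene and the next in this order overlapped in all cases. With missing peaks counted as 0, S100b (39.6) came below Apoe (41.9). The other promoter region of Aqp4, 5.7 kb inside the gene, had a mean of 98.1. Of the 10 regions nearest to a start, Gfap in WT and Apoe in both genotypes passed the test.

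**Figure D4:**
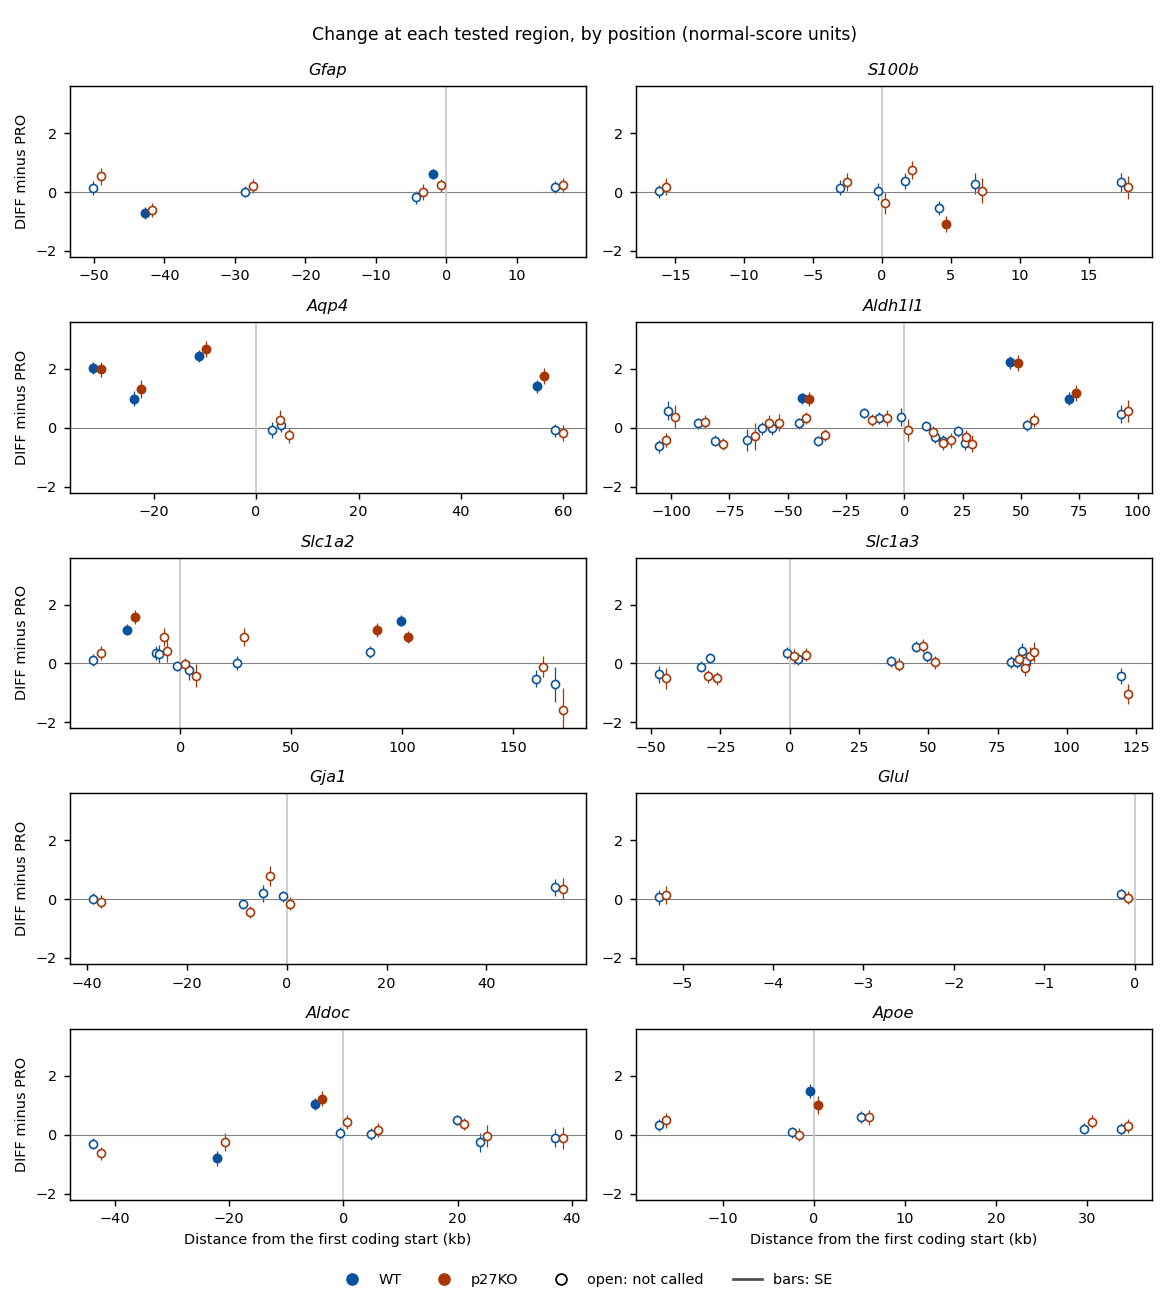
Change from PRO to DIFF (vertical, normal-score units, bars are SE) at each tested region against its distance from the first coding start (horizontal, kb, negative upstream, shifted slightly sideways by genotype) for the 10 astrocyte genes; filled points were called. Filled points lie mostly away from the starts, in Aqp4, Aldh1l1 and Slc1a2.

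Between genotypes, no astrocyte region was called. The test of whether the change from PRO to DIFF differed between p27KO and WT called 0 of 87 regions and 0 of all 70627 (0%), with 3 of 87 and 2760 of all at an unadjusted p under 0.05 by limma. Comparing p27KO with WT at DIFF called 0 astrocyte regions, against 0.0156% of all, with 3 of 87 and 3466 of all at an unadjusted p under 0.05. These 3 were Slc1a3 at 27.6 kb upstream (difference -0.46), Gja1 at 4.1 kb upstream (0.83) and Aldoc at 43.2 kb upstream (-0.46). At PRO it called 0, against 0.034% of all, with 2 of 87 and 3906 of all at an unadjusted p under 0.05, both in Slc1a2: the regions 27.2 kb (difference -1.18) and 87.0 kb (difference -0.73) into the gene, lower in p27KO. A p-value that misses the threshold does not show that the genotypes were alike.

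A further list of 42 astrocyte genes, among them Sox9, Atp1b2, Clu, Mt1 and Id3, was described in the same way. Outside the windows of the 10 genes it had 468 regions, of which 355 were tested. In WT 39 of these (11.0%) rose and 26 (7.32%) fell, against 9.15% and 10.1% of all tested regions, and in p27KO 28 (7.89%) rose and 10 (2.82%) fell, against 5.83% and 6.48%. The median changes were 0.01 and 0.05, against 0.03 and 0.04. Of 40 promoter regions of the list that were tested, 1 was called in WT and 0 in p27KO. The called region was that of Bcan (a proteoglycan of the perineuronal matrix), with a change of 0.93 (limma adjusted p = 0.00641). At an unadjusted p under 0.05 by limma, 7 passed in WT and 3 in p27KO, against 3155 and 2232 of all 17764 tested promoter regions.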

How the data were processed

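Nuclei of each library were tagmented with a Tn5 kit and sequenced in pairs. The authors clipped and trimmed the reads, mapped them to GRCm38 (mm10) with Bowtie2, marked duplicates and called narrow peaks per library with MACS2 (false discovery rate 0.05). Versions of these tools are not given in the sources used here. The deposited peak lists give, per peak, a fold enrichment (a ratio to the local background), −log10 p-values, −log10 q-values and a score; no peak in the deposited lists had a −log10 q-value under 1.30. They hold no read counts, so the depth behind a value is unknown, no counting interval can be given, and the authors' count-based comparison could not be run.

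Overlapping peaks (at least 1 bp) of the 10 lists were merged into 137454 regions, with 99231 found in 2 or more libraries, 70627 in 5 or more and 37862 in all. A region's value was the fold enrichment of its strongest peak and its position that peak's summit. Normal scores of the ranks were fitted in limma 3.58.1 (R 4.3.3) with the 4 groups in 1 model and Benjamini-Hochberg adjustment over all tested regions; p-values measure the spread between these libraries. The ranking and the test were also run on simulated scores without missing peaks, so that run does not cover regions that lacked a peak in some library. Genes, starts and exons came from GENCODE release 21 for mouse, not the release the authors used, and sequences from the RefSeq copy of GRCm38. For each gene the text names the region nearest to a start, all called regions and the strongest distal region. The members, lists and motifs were chosen with earlier results of these data known.

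Alternatives were ranking by −log10 p-value, other filters on regions (at least 2 or all 10 libraries), stricter peaks (−log10 q-value of at least 5), lists cut to the shortest length (57534 peaks), regions from summits extended by 100 bp, fits of only the groups compared, a block for the replicate number and leaving out each library. No label says that the replicate numbers pair the libraries, so they were not taken as pairs. Same-numbered PRO and DIFF libraries correlated in their deviations at 0.057, 0.065 and 0.033 in WT. In p27KO the value was -0.141 for both pairs, which must be equal with 2 libraries per group.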

Additional observations from a re-analysis of the deposited data

How the results depend on the processing

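Of the 27 calls of single astrocyte regions, 10 belong to the regions found in every DIFF and no PRO library. The direction of their changes follows from how they entered the test, so these calls are a description. Of these 10, 9 held in every setting run. That of Aldoc at 4.3 kb upstream in p27KO did not. Of the other 17, 6 held in every setting run: those of Aqp4 at 55.5 kb downstream in both genotypes, and in WT those of Apoe, Slc1a2 at 101.0 kb and Aldh1l1 at 42.5 kb upstream and 72.2 kb downstream. A fit of the regions found in all 10 libraries called 7 astrocyte regions in WT and 5 in p27KO. In the main fit the 53 astrocyte regions of that kind had 5 rises and 1 fall in WT and 5 rises and 0 falls in p27KO. With a library left out, the p27KO count ran from 5 to 14 and the WT count from 10 to 15, closed regions from 2 to 8 in WT and from 9 to 14 in p27KO, and opened regions in p27KO from 7 to 11. The counts of closed and opened regions could only stay or rise, since leaving out a library loosens their rule. With a replicate block 11 regions were called in WT and 11 in p27KO. The WT libraries each correlated best with the library of their own number, a hint from the data and not from the design. Crossing the numbers in p27KO, an alternative chosen after seeing the data, gave 12 in WT and 13 in p27KO. Calls over all regions in these settings are not given here. A change at the astrocyte regions thus cannot be told apart from one over all regions.

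The changes of 19 uncalled results took the other sign in some setting, and none of them was called there; the cause was not tested. Ranking by −log10 p-value gave 0.16 for Aqp4 at 59.1 kb in WT, 0.08 for Gfap at 3.9 kb upstream and 0.06 for Gja1 at 38.1 kb upstream in p27KO, -0.16 for the Gja1 start in WT, -0.06 in WT and -0.19 in p27KO for the Glul start, and -0.03 for the S100b start in WT. The fit of regions in all 10 libraries gave -0.03 for the Aldoc start in WT. Stricter peaks gave 0.16 for Aqp4 at 3.9 kb in WT and 0.08 for Gfap at 3.9 kb upstream in p27KO, and shortened lists gave 0.01 for both. Extended summits gave -0.34 for the Aldoc start in p27KO and -1.0 for Apoe at 30.1 kb in WT. With a library left out, the p27KO changes ran from -0.44 to 0.30 at the Aldh1l1 start, -0.55 to 0.04 at Aldoc 21.5 kb upstream, -0.25 to 0.25 at Gfap 3.9 kb upstream, -0.31 to 0.02 at the Gja1 start, -0.20 to 0.04 at Gja1 38.1 kb upstream, -0.16 to 0.26 at the Glul start, -0.87 to 0.14 at the S100b start, -0.12 to 0.11 at the Slc1a2 start and -0.21 to 0.14 at Slc1a3 38 kb downstream. The WT changes ran from -0.07 to 0.18 at the Aldoc start, -0.37 to 0.22 at Aqp4 3.9 kb, -0.24 to 0.07 at Aqp4 59.1 kb, -0.09 to 0.10 at Gja1 38.1 kb upstream, -0.11 to 0.27 at the S100b start and -0.01 to 0.14 at Slc1a3 38 kb downstream.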
